A study of Mus musculus with 15 samples.

Results

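The cardiac response to sepsis was read gene by gene in wild-type mice and in mice without inducible nitric oxide synthase, and the 2 responses were then set side by side. Septic hearts came from mice whose caecum had been tied off and perforated (CLP, caecal ligation and perforation), which lets gut bacteria into the abdomen; in sham mice the caecum was lifted out and put back. The comparison used 14 of the series' 15 heart arrays, 1 array per heart. Of these, 9 were of C57/BL6 wild-type mice (3 sham and 6 CLP, of which 3 were labelled Min Dep and 3 Max Dep) and 5 were of congenic B6.129P2-Nos2tm1Lau/J mice, labelled iNOS KO (3 sham and 2 CLP). The knockout is a germline one, so every cell type of the animal lacked the enzyme, and not the heart muscle cells alone. All hearts were taken whole 48 h after surgery, all mice had received buprenorphine and saline, and no age is given in the labels. The arrays measured 12393 genes in both genotypes.

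Inducible nitric oxide synthase, encoded by Nos2, makes nitric oxide from arginine when bacterial products and cytokines switch it on, mainly in myeloid cells but also in cardiac and vascular cells. Nitric oxide made in this way relaxes vessels, binds haem proteins and has been studied as a mediator of the depressed contraction of the septic heart. The septic heart is also known for an influx of neutrophils and macrophages, for lower use of fatty acids as fuel, and for stress of the endoplasmic reticulum, where secreted and membrane proteins are folded.

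The 2 genotypes lie in separate value tables in different units and from different array models, so genotype cannot be told apart from table. The wild-type values are standardised per probe set, so that every probe set varies about equally and a difference cannot be turned into a fold. A gene's value is the mean of its probe sets, so genes whose probe sets disagree vary less. The knockout values behave as log differences centred on 0, with a base that is not given. Levels and sizes were therefore never compared between tables. A gene was called apart when all its CLP arrays lay above, or all below, all its sham arrays, and its place was given as the percentile of CLP minus sham among all genes of its own table, with 100 the most raised. A wild-type percentile thus ranks the difference relative to the gene's own spread, and a knockout percentile ranks the size of a log difference. The 2 percentiles of a gene are therefore unlike measures. The difference between the 2 responses itself was not tested, since no single model can hold both tables. There are 84 possible splits in wild type and 10 in knockout. The smallest 2-sided exact permutation p for 1 gene, taken as the doubled 1-sided value, is therefore 0.02381 and 0.2. The knockout design cannot reach 0.05 that way.

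The arrays were checked first. The knocked-out gene gave no check of the labels: Nos2 had sham values of 1.40, -0.30 and -0.91 in wild type, against CLP values from -0.98 to 1.78 with a median of -0.16, and values of 0.12, -0.72 and 1.06 in knockout sham against -1.43 and 0.57 in knockout CLP. Its CLP and sham arrays overlapped in both tables, and values centred within a table cannot show whether the knockout lacked the transcript. Sex-linked genes set 1 sham array apart in each table. Wild-type sham replicate 1 had the highest Xist (2.64) and the lowest Eif2s3y (-2.48) of its table, while knockout sham replicate 2 had the lowest Xist (-6.36) and the highest Eif2s3y (5.76) of its own. A measure of RNA wholeness, the 5' minus the 3' control value of Gapdh and Actb, ranged from 0.39 to 1.76 in wild-type sham arrays and from -1.85 to 0.53 in wild-type CLP arrays, so it moved with the groups. In knockout it was -2.06 and -0.78 in CLP arrays and -1.97, 0.21 and 0.98 in sham arrays. The part of sex and of RNA wholeness in the results was not tested beyond the alternatives given with them. The remaining knockout CLP array, replicate 1, was not used. In 9302 of 12393 genes (75.1%) its value fell between those of the other CLP arrays, where a mean of them would always fall. For Xist it lay outside them, at -3.23 against 0.68 and 0.20. How its values arose was not tested.

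More genes moved the same way in both genotypes than moved in opposite ways. In wild type 730 genes were higher in all CLP arrays than in all sham arrays (5.89% of all genes) and 757 were lower (6.11%). In knockout, where fewer arrays make separation easier, 1856 were higher (15%) and 1731 lower (14%). Higher in both were 270 genes (2.18%) and lower in both 172 (1.39%), whereas 75 were higher in wild type and lower in knockout (0.605%) and 54 were lower in wild type and higher in knockout (0.436%). Same-direction genes thus made up 442 (3.57%) and opposite genes 129 (1.04%) of all genes.

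Beside the background, the share in common was 37% for genes higher in wild type and 22.7% for genes lower. Of the 730 genes higher in wild-type CLP, 37% were also higher in knockout, against 15% of all genes, and 10.3% were lower, against 14% of all. Of the 757 lower in wild-type CLP, 22.7% were also lower in knockout, against 14% of all genes, and 7.13% were higher, against 15% of all. Read the other way, 14.5% of the 1856 genes higher in knockout were higher in wild type, against 5.89% of all genes, and 9.94% of the 1731 genes lower in knockout were lower in wild type, against 6.11% of all. Of the 500 most raised genes of each table, 110 were shared (22% of either list), and of the 500 most lowered, 66 were shared (13.2%). Only 18 of the 500 most raised in wild type were among the 500 most lowered in knockout, and 4 the other way round. Most genes lay outside these lists and followed each other weakly: across all 12393 genes, which are not independent replicates, the Spearman correlation was 0.172 and 55.08% had the same sign.

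**Figure D1:**
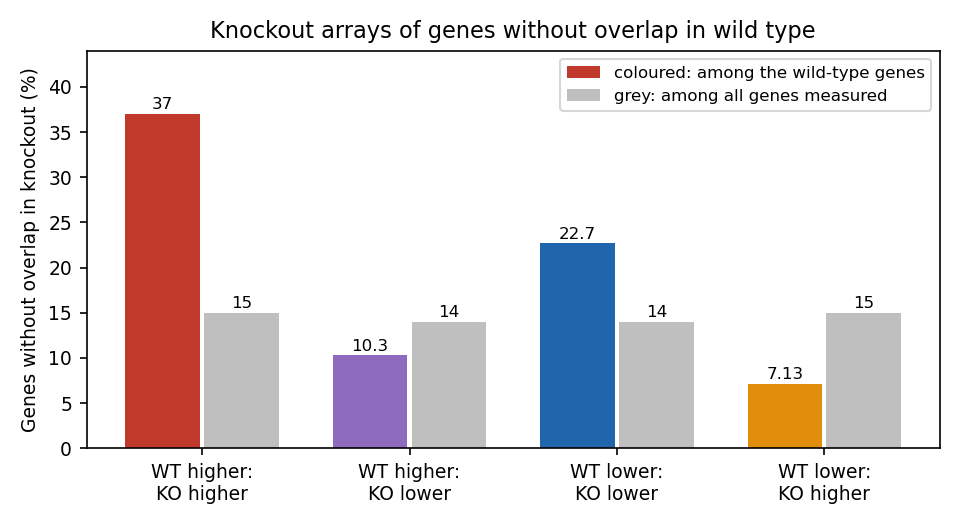
Percentage of genes apart in wild-type hearts that were also apart in knockout hearts (vertical axis, %), by direction in wild type and in knockout (horizontal axis). Coloured bars are the 730 genes higher or 757 genes lower in wild-type CLP and grey bars are all genes measured; shared rises stand at 37% against 15%, and shared falls at 22.7% against 14%.

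**Figure D2:**
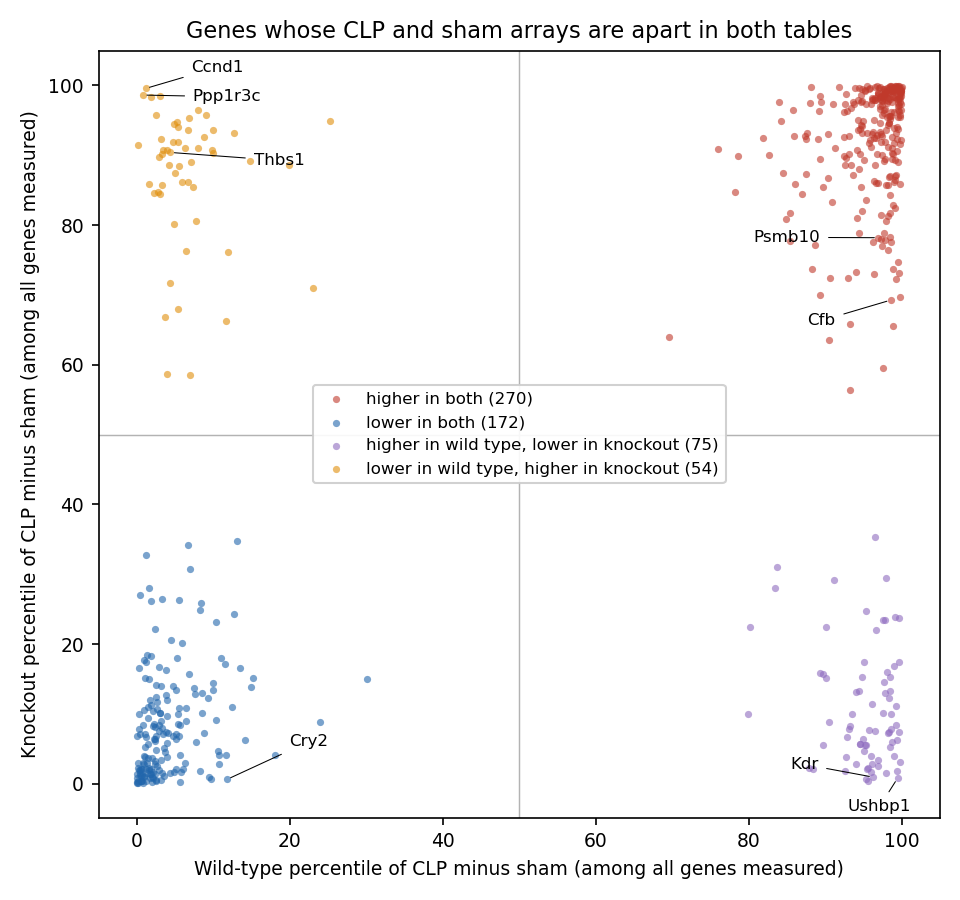
Each point is 1 of the 571 genes apart in both tables, at its percentile of CLP minus sham in wild type (horizontal) and in knockout (vertical), 100 being the most raised. The corners for the same direction hold 270 and 172 genes and those for opposite directions 75 and 54; since only genes apart in both tables are drawn, the empty centre follows from the choice of genes.

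The genes that passed a test in wild type were then looked up in knockout, whose arrays had no part in choosing them. In wild type, limma with Benjamini-Hochberg adjustment passed 42 rises (0.339%) and 47 falls (0.379%), 89 genes in all (0.718%). Of the 42 rises, 35 (83.3%) were higher on average in knockout CLP, against 51.46% of all genes, 26 (61.9%) were higher without overlap, and 1 was lower without overlap. Of the 47 falls, 31 (66%) were lower on average in knockout, against 48.54% of all genes, 11 (23.4%) were lower without overlap, and 3 were higher without overlap. The median knockout percentile was 92.21 for the rises and 40.41 for the falls. The wild-type count rests on single arrays: it went to 0 without Max Dep replicate 1, Min Dep replicate 1, sham replicate 1 or sham replicate 2, to 1 without Min Dep replicate 3, to 2 without sham replicate 3, to 4 without Max Dep replicate 2, to 12 without Max Dep replicate 3 and to 186 without Min Dep replicate 2. It was also 0 with eBayes moderation and 1 with the 5' minus 3' control value as a covariate. No knockout gene passed limma with eBayes (lowest adjusted p 0.08202; 1476 genes had an unadjusted p under 0.05), nor with unmoderated statistics, so in knockout genes are described by their arrays and not as having risen or fallen.

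Macrophage genes had the largest share of members higher in both tables of the 45 lists examined. The list counts here and below stand against the shares over all genes. These are 5.89% higher and 6.11% lower in wild type, 15% and 14% in knockout, and 2.18% and 1.39% in both. Of 25 macrophage and monocyte genes measured, 14 were higher without overlap in wild type, 21 in knockout and 14 in both, and none was lower without overlap in either. The list's mean over members was -1.17, -0.51 and -1.08 in wild-type sham arrays and -0.13 to 1.05 in CLP arrays; in knockout it was -0.08, -0.05 and -0.58 in sham and 2.05 and 1.46 in CLP. Its median percentile was 93.7 in wild type and 98.1 in knockout. In whole hearts, more cells of a type and more RNA per cell cannot be told apart.

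Fcer1g, the signalling chain of Fc receptors, rose in wild type by 2.03 ± 0.22 (SE, standardised units, 6 CLP and 3 sham arrays; limma adjusted p = 0.03072), the highest percentile of the table. Its wild-type sham values were -1.23, -1.25 and -1.54 and its CLP values ran from 0.27 to 1.33 with a median of 0.66. In knockout it stood at -0.01, 0.08 and -0.18 in sham and at 4.70 and 3.42 in CLP, the 99.85th percentile. The CLP arrays of both genotypes were thus well clear of sham. Tyrobp, the partner adaptor of many myeloid receptors, also rose in wild type, by 2.01 ± 0.19 (adjusted p = 0.02901), and in knockout its CLP values of 3.08 and 2.27 lay above sham values of 0.02, -0.18 and -1.13. P2ry6, a receptor for nucleotides released by damaged cells, rose by 2.01 ± 0.21 (adjusted p = 0.03072) in wild type and had knockout CLP values of 2.67 and 2.60 against 0.16, -0.42 and -0.86 in sham. C1qa, a chain of the first complement component made mainly by macrophages, missed the threshold in wild type (1.94 ± 0.30, adjusted p = 0.0543) although every CLP array, from 0.09 to 1.43, lay above sham at -1.59, -0.92 and -1.35. In knockout C1qa was at 3.28 and 3.02 in CLP and at -0.25, 0.32 and -0.60 in sham. Itgam, the alpha chain of the complement receptor on neutrophils and macrophages, was at percentiles 99.8 and 99.1 in wild type and knockout.

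Neutrophil genes also stood high in both tables, with median percentiles of 92 in wild type and 95.6 in knockout. Of 17 measured, 6 were higher without overlap in wild type and 13 in knockout, 5 in both (Lyz2, Mmp8, Ngp, S100a8 and S100a9), and none was lower. The list's mean ran from -0.89 to -0.46 in wild-type sham arrays and from -0.22 to 0.89 in CLP arrays, and in knockout from -0.42 to -0.13 in sham against 2.24 and 1.09 in CLP. S100a8, which with S100a9 forms the alarmin calprotectin, rose in wild type by 1.93 ± 0.24 (adjusted p = 0.03946), from sham values of -1.63, -0.83 and -1.38 to CLP values of -0.04 to 1.36 with a median of 0.70. In knockout its sham arrays were close together at 0.02, -0.01 and 0.08 and its CLP arrays at 5.03 and 3.83. S100a9 rose alike in wild type (1.92 ± 0.26, adjusted p = 0.04981) and stood at 5.53 and 3.77 in knockout CLP against 0.24, 0.00 and -0.03 in sham. Lcn2, which starves bacteria of iron, was at the 99.92nd percentile in knockout, with 5.27 and 3.52 in CLP against 0.02, 0.24 and -0.67 in sham. It was at the 96.8th in wild type, where CLP values from -0.83 to 1.81 overlapped sham at -1.39, -1.14 and -0.72. Without Min Dep replicate 2 or sham replicate 3 the wild-type arrays no longer overlapped, but leaving out an array can only remove overlap. Lymphocyte genes were counted likewise. Of 16 T and natural killer cell genes, 0 were higher and 2 lower without overlap in wild type. In knockout 2 were higher and 5 lower. Thy1, which is also in the fibroblast list, was lower in both. Of 10 B cell genes none was apart in wild type, and 1 was higher and 2 lower in knockout. Over all genes 5.89% were higher and 6.11% lower in wild type, and 15% and 14% in knockout. Counts this small were not tested against these shares.

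**Figure D3:**
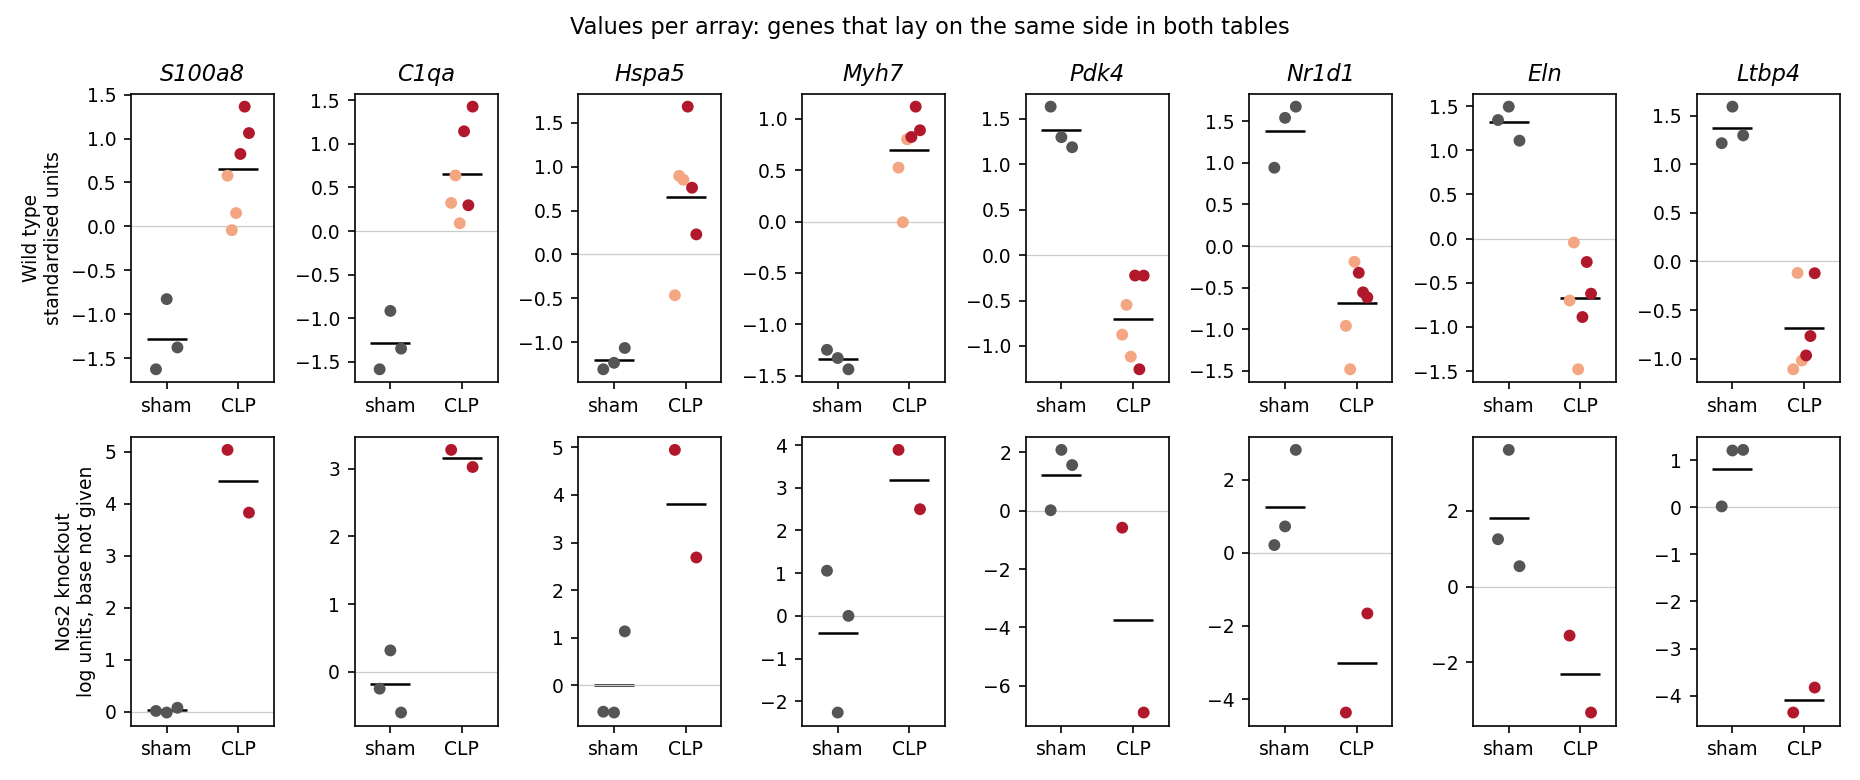
Values of 8 genes in each array (vertical axes: standardised units in the top row, log units of unknown base in the bottom row) for sham (grey) and CLP; in wild type pale points are Min Dep and dark points Max Dep arrays, and bars are group means. S100a8, C1qa, Hspa5 and Myh7 lay above sham and Pdk4, Nr1d1, Eln and Ltbp4 below sham in every CLP array of both tables.

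Chaperones of the endoplasmic reticulum formed another group higher in both tables. When unfolded proteins build up there, the sensors ATF6, IRE1 and PERK switch on genes for chaperones and folding enzymes, and ATF6 is known to act through a composite promoter sequence, the endoplasmic reticulum stress element. Of 26 members measured, 11 were higher without overlap in wild type and all 11 of these were so in knockout, where 19 were higher and 1 lower. The 11 were Calr, Canx, Creld2, Dnajb11, Dnajc3, Hsp90b1, Hspa5, Manf, P4hb, Sdf2l1 and Xbp1. The median percentile of the list was 84.4 in wild type and 97.2 in knockout.

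The promoters of these genes are shown because the element recurs in them. The letters CCAAT and CCACG with 9 bases of any kind between them were searched on both strands of the 250 bases before each listed start of each gene (RefSeq, GRCm38.p6), a search chosen after the values had been seen. They occurred in 17 of 9885 measured genes with a promoter in the table (0.172%), in 6 of 220 genes higher in both tables (2.73%) and in 0 of 130 genes lower in both. Among the chaperone list, 6 of the 10 members higher in both with a promoter held it (60%), and 2 of the 13 other members (15.4%), Pdia6 and Syvn1. The 6 genes higher in both that held the element are the same 6 in the chaperone list, so the shares are not separate observations. The element is already known for chaperone genes, so its presence there says nothing about these arrays. A match describes these letters and is not evidence of binding. The 7 matches in genes higher in both are listed in the direction of the element, with the fixed letters in capitals and the 9 spacer bases in lower case.
Calr, chr8:84847075-84847093, opposite strand: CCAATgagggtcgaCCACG
Canx, chr11:50325800-50325818, gene strand: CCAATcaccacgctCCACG
Creld2, chr15:88819520-88819538, opposite strand: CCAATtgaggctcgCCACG
Dnajc3, chr14:118937827-118937845, gene strand: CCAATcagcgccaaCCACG
Hsp90b1, chr10:86705638-86705656, gene strand: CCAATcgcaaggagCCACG
Hsp90b1, chr10:86705533-86705551, opposite strand: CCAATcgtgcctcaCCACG
Hspa5, chr2:34772025-34772043, gene strand: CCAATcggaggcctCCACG

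The matches began 65 bases before the start in Hspa5 and 212 and 107 bases before it in Hsp90b1. These windows are given whole, 5' to 3' on the strand of the gene, with each element in capitals; the second one of Hsp90b1 lies on the opposite strand and so reads as its reverse complement.
Hspa5, chr2:34771840-34772089, plus strand: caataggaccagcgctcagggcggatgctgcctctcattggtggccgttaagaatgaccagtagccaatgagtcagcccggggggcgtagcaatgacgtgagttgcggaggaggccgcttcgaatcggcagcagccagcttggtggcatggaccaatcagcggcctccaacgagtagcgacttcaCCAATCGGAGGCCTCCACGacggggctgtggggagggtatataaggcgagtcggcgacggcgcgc
Hsp90b1, chr10:86705445-86705694, minus strand: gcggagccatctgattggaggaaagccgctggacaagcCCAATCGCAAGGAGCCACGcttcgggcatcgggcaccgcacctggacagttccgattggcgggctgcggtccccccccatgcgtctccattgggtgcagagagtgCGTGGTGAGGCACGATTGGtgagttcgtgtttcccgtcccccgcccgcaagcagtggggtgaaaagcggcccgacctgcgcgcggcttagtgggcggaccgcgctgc

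Calr, a calcium-binding chaperone, rose in wild type by 2.02 ± 0.24 (adjusted p = 0.03573), from sham values of -1.53, -1.35 and -1.08 to CLP values of 0.16 to 1.16 with a median of 0.76. In knockout it stood at 2.95 and 1.67 in CLP against -0.88, -0.44 and 0.00 in sham. Hspa5, the main chaperone of the compartment (BiP), lay apart in both tables without passing the test in wild type (1.86 ± 0.44, adjusted p = 0.105): sham arrays were at -1.31, -1.23 and -1.06 and CLP arrays at -0.46 to 1.68 with a median of 0.81. Its knockout CLP arrays were at 4.95 and 2.69 against -0.55, -0.57 and 1.13 in sham. Hsp90b1, the compartment's form of HSP90, had CLP values of -0.55 to 1.61 (median 0.53) against -1.41, -1.0 and -1.0 in wild-type sham, and 5.19 and 2.32 against -0.31, -0.63 and 0.13 in knockout. Sdf2l1, a cofactor of BiP, reached the 99.98th percentile in knockout, with 6.26 and 3.18 in CLP against -0.23, -0.24 and 0.00 in sham, and the 99.27th in wild type. Fkbp2, a prolyl isomerase of the same compartment, was at percentiles 99.48 and 99.85, although it was in no list. In knockout, CLP replicate 2 was the higher of the 2 CLP arrays for Calr, Hspa5, Hsp90b1, Sdf2l1 and Fkbp2.

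Letters of 5 transcription factor families were searched in a single window per gene, of the same length. The element above was searched before each listed start, so its shares and the shares given here do not rest on the same windows. C/EBP-type letters (TTGCNNAA) stood in 8.28% of all 9885 promoters, in 10.9% of those of genes higher in both and in 8.46% of those lower in both; STAT-type letters (TTCNNNGAA) in 6.07%, 8.18% and 2.31%; E-box letters (CACGTG) in 7.67%, 9.09% and 6.15%; and NF-kB-type letters (GGGA and TTCC with 2 bases of any kind between) in 1.19%, 0.909% and 0%. The STAT-type and E-box letters read the same on both strands. The glucocorticoid receptor type was found in 0 of 9885 promoters, so it could show nothing here.

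Cytosolic ribosomal protein genes were widely higher in wild type. Of 43 measured, 23 were higher without overlap in wild type, 15 in knockout and 11 in both, with 1 lower in knockout. Over all genes 5.89%, 15% and 2.18% were higher in wild type, knockout and both. The list's median percentiles were 94.2 in wild type and 80.5 in knockout. Rpl35, of the large subunit, rose in wild type by 1.47 ± 0.16 (adjusted p = 0.03072) and stood at 1.18 and 0.26 in knockout CLP against 0.14, -1.11 and -0.23 in sham, a narrow gap; 5 of its 6 probe sets had the same sign in knockout, but some of them overlapped there. Rps3, of the small subunit, was at percentiles 94.88 and 93.21. The knockout mean over the list was 0.69 and -0.06 in CLP arrays against -0.10, -0.72 and 0.07 in sham, so as a whole the list overlapped there. Ribosomal genes have many near-identical copies, which short probes may not tell apart.

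Among the heart muscle's own genes a myosin led. Myh7, the slow myosin heavy chain of the fetal mouse ventricle, rose in wild type by 2.03 ± 0.18 (adjusted p = 0.0276), from -1.25, -1.33 and -1.44 in sham to -0.01 to 1.12 in CLP with a median of 0.81. In knockout its CLP arrays were at 3.89 and 2.50, and its sham arrays spread widely at 1.06, -2.26 and 0.00 without reaching them. Actc1, cardiac actin, lay below sham in both tables, at percentiles 2.16 and 0.84. Of 12 fetal and wall-stress genes, Myh7 was the 1 member higher in both. In wild type 1 was higher and 2 lower, against 5.89% and 6.11% of all genes. In knockout 3 were higher and 1 lower, against 15% and 14%. Counts this small were not tested against those shares. Nppa, the atrial natriuretic peptide gene, overlapped in both tables, with knockout CLP values of -1.58 and 5.28. Nppb, its relative induced by wall stretch, lay above sham in knockout (3.47 and 1.82 against -3.50, 1.54 and 0.00) and overlapped in wild type at percentile 12.74. Of 27 sarcomere and Z-disc genes, 2 (Des and Myh7) were higher and 1 (Actc1) lower in both, against 2.18% and 1.39% of all genes. For Des one probe set was apart in wild type and the other in knockout, and neither in both. Parm1, a membrane glycoprotein, rose in wild type (1.90 ± 0.23, adjusted p = 0.03923) and was at 2.95 and 2.62 in knockout CLP against -1.26, -1.27 and 0.40 in sham. Cpeb3, a translation regulator that binds messenger RNA, was at percentiles 99.45 and 99.55, and Lysmd3 at 99.31 in both tables.

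Among genes lower in both tables, fuel-switch genes led. Pdk4, a kinase that inactivates pyruvate dehydrogenase and that fasting and fatty acids induce, fell in wild type by 2.08 on the standardised scale (SE 0.29, adjusted p = 0.04981), from 1.64, 1.30 and 1.19 in sham to a CLP range of -1.26 to -0.22 with a median of -0.71. In knockout it stood at 0.02, 2.09 and 1.57 in sham and at -0.58 and -6.92 in CLP, where the 2 arrays lay far apart. Txnip, which restrains glucose uptake, missed the threshold in wild type (adjusted p = 0.05369) at percentile 0.04, and had knockout CLP values of -2.57 and -4.75 against 0.28, 0.90 and 1.38 in sham. Ucp3, a mitochondrial carrier whose gene follows fatty acid supply, fell in wild type by 1.96 (SE 0.21, adjusted p = 0.03072) and was at -2.39 and -3.25 in knockout CLP against 0.61, 0.02 and 0.18 in sham. The 29 fatty acid genes counted 13 lower and 1 higher in wild type, 11 lower and 2 higher in knockout, and 4 lower in both: Eci2, Hadh, Pdk4 and Ucp3. Lpl, which frees fatty acids from blood lipids, was the 1 member higher in both. Without knockout sham replicate 1 the number lower in both was 8, and without knockout CLP replicate 3 it was 7. Fewer arrays make separation easier, and over all 12393 genes 270 and 322 were then lower in both, against 172 with all arrays used.

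Nr1d1, the clock repressor REV-ERB alpha, had wild-type sham values of 0.94, 1.54 and 1.68 and CLP values of -1.48 to -0.19 with a median of -0.59 (adjusted p = 0.0543), and knockout sham values of 0.21, 0.72 and 2.82 against -4.37 and -1.66 in CLP. Cry2, another clock repressor, was lower in both tables at percentiles 11.8 and 0.61, but its wild-type arrays overlapped once the array standardisation was undone. Of the 17 clock genes, 2 were lower and 1 higher in wild type, against 6.11% and 5.89% of all genes. In knockout 7 were lower, against 14%. Single genes from outside that list were also low in both tables. Sox7, an endothelial transcription factor, stood at percentiles 0.1 and 0.86, Rgs5, a marker of pericytes, at 1.02 and 1.01, and Plxna2, a semaphorin receptor, at 0.56 and 0.36.

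Matrix genes were the largest group lower in both tables. Of 43 measured, 25 were lower without overlap in wild type and 23 in knockout, 18 in both, while 1 and 3 were higher. The 18 included collagen and laminin chains, elastin and the protease gene Mmp2, while Col15a1 and Thbs1 were lower in wild type and higher in knockout (percentiles 2.32 and 84.59 for Col15a1). Ltbp4, which ties TGF-beta to elastic fibres, had wild-type sham values of 1.22, 1.59 and 1.30 and CLP values of -1.11 to -0.12 with a median of -0.87 (adjusted p = 0.0543), and knockout sham values of 0.02, 1.21 and 1.22 against -4.36 and -3.83 in CLP. Eln, the elastin gene, stood at 1.34, 1.49 and 1.11 in wild-type sham against -1.48 to -0.04 in CLP, and at 1.25, 3.6 and 0.54 in knockout sham against -1.29 and -3.32. Timp3, an inhibitor of matrix proteases, was at percentiles 0.87 and 0.11, with knockout CLP values of -2.54 and -6.45. Nid2 of the basement membrane was at percentiles 0.52 and 1.14, Aspn, a small proteoglycan, at 0.95 and 1.15, and Itih5, whose family binds hyaluronan, at 0.71 and 0.35. Col1a2, a chain of the main fibrillar collagen, was lower in both at percentiles 5.13 and 6.37, yet its wild-type arrays overlapped once the array standardisation was undone. Neither of its probe sets was apart in both tables.

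Fibroblast markers were also lower in both tables by count. Of 18 fibroblast genes, 9 were lower in wild type, 10 in knockout and 7 in both, and 1 was higher in knockout. Over all genes 6.11%, 14% and 1.39% were lower in wild type, knockout and both. Of the 7, Thy1 is also in the T and natural killer cell list and Col1a2 in the matrix list. The lists are thus not separate observations. Of 17 smooth muscle and pericyte genes, 7 were lower in wild type, 9 in knockout and 2 in both. Des, also in the sarcomere list, was the 1 member higher in both. The fibroblast list's mean was 0.73, 0.90 and 0.87 in wild-type sham arrays and -1.48 to 0.35 in CLP arrays, and in knockout 0.62, 1.12 and 0.26 in sham against -0.33 and -1.47 in CLP. H2-Ab1, a chain of the MHC class II molecule that presents antigen, was lower in both at percentiles 1.44 and 3.72.

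Opposite genes of the first kind, lower in wild-type and higher in knockout CLP, were led by Ccnd1, the cyclin that starts the cell cycle. Its wild-type sham values were 1.18, 1.38 and 1.23 and its CLP values ran from -1.30 to 0.23 with a median of -0.75, while in knockout CLP it stood at 2.55 and 2.83 against 0.04, -1.57 and -0.57 in sham. The 2 genotypes thus lay on opposite sides of sham at percentiles 1.17 and 99.57. Ppp1r3c, which brings a phosphatase to glycogen and favours its synthesis, fell in wild type by 1.95 (SE 0.20, adjusted p = 0.03072), from 1.39, 1.57 and 0.92 to a range of -1.19 to -0.15, and stood at 0.49 and 3.71 in knockout CLP against -0.83, -0.13 and -0.31 in sham. It was the 1 member of the 8 named here that passed the wild-type test. Lgals1, a galectin that dampens T cells, had knockout CLP values of 1.43 and 2.07 against -0.76, 0.23 and -1.39 in sham, and wild-type CLP values of -1.70 to 0.50 against 0.70, 1.43 and 1.51.

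Dnajb4, a cytosolic HSP40 and the 1 of 21 heat shock genes of this kind, was at percentiles 3.04 and 98.46, and Hikeshi, which carries HSP70 into the nucleus under heat stress, at 4.91 and 94.51. Asns, the asparagine synthetase gene that amino acid shortage induces, was at 5.41 and 94.03, with a gap of less than 1 unit in each table: knockout CLP values were 1.00 and 0.45 and the highest sham value -0.01. Of its probe sets, too, one was apart in wild type and the other in knockout, and neither in both. Dnttip2, a nucleolar protein, lay apart in knockout by a hair, at 0.94 and 1.12 against a highest sham value of 0.93. It overlapped when CLP replicate 1 was taken in, and neither of its probe sets was apart in knockout by itself. Clic4, an intracellular chloride channel protein, was at percentiles 5.3 and 94.81. Thbs1, the matricellular protein thrombospondin that activates TGF-beta, was at 1.23, 1.88 and 0.08 in wild-type sham against -1.02 to -0.26 in CLP, and at 1.06 and 0.30 in knockout CLP against -0.56, -0.17 and -0.50 in sham. It was 1 of the 3 matrix genes higher in knockout, where 23 were lower.

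**Figure D4:**
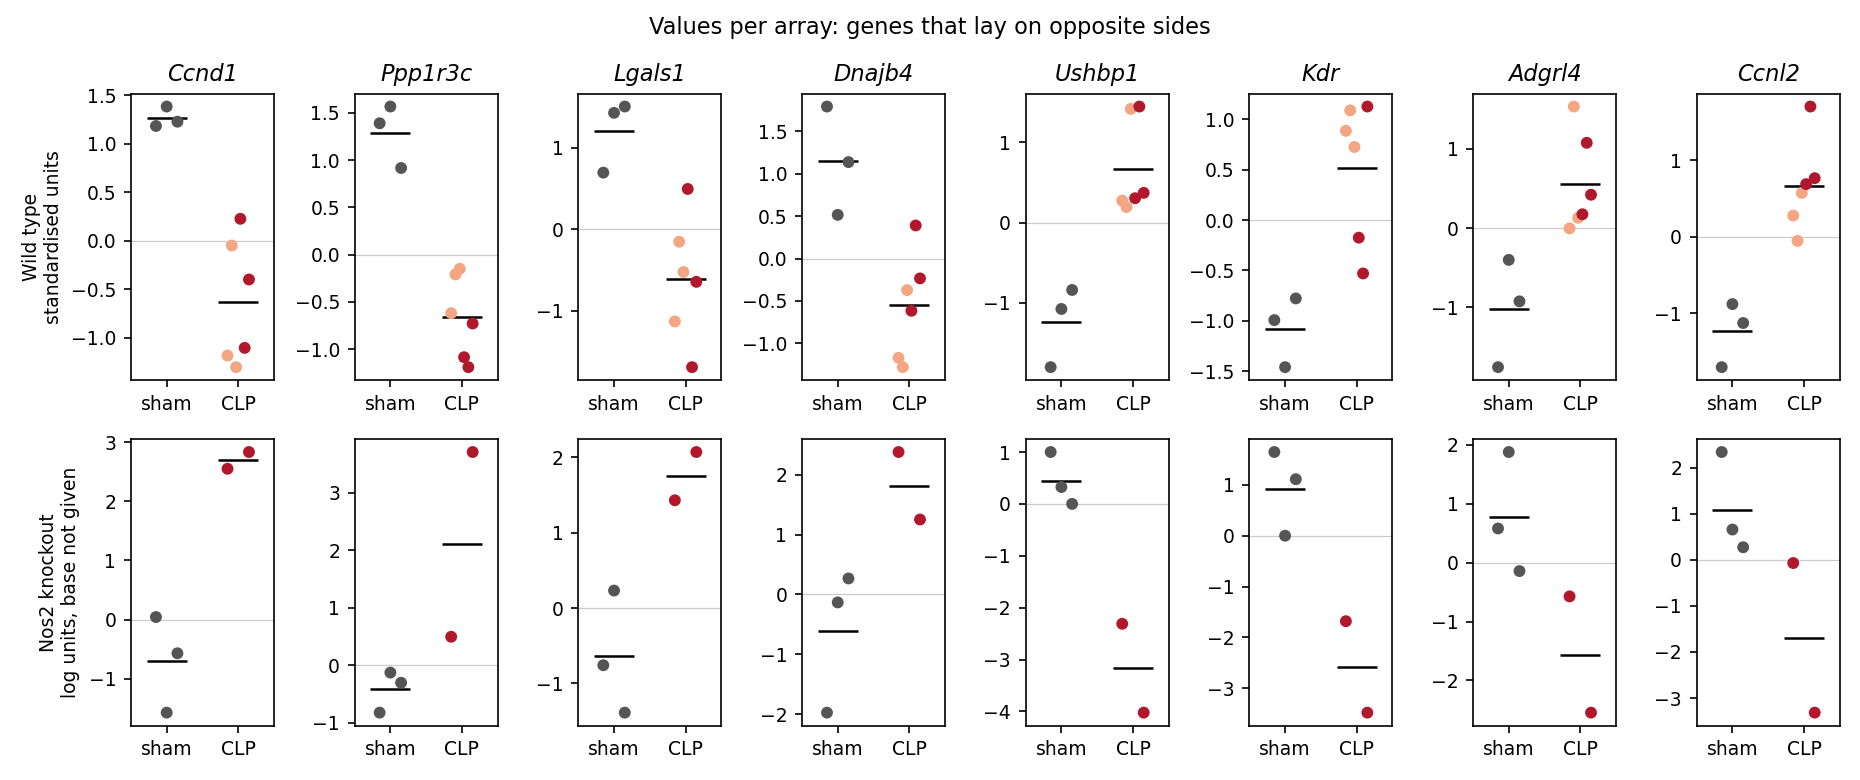
Values of 8 genes in each array (vertical axes: standardised units in the top row, log units of unknown base in the bottom row) for sham (grey) and CLP; in wild type pale points are Min Dep and dark points Max Dep arrays, and bars are group means. Ccnd1, Ppp1r3c, Lgals1 and Dnajb4 lay below sham in wild-type and above it in knockout CLP, and Ushbp1, Kdr, Adgrl4 and Ccnl2 the reverse.

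Opposite genes of the second kind, higher in wild-type and lower in knockout CLP, included receptors of the endothelium. Kdr, the main receptor for vascular endothelial growth factor, had wild-type sham values of -0.99, -1.46 and -0.78 and CLP values of -0.53 to 1.13 with a median of 0.81, and in knockout sham values of 1.65, 0.00 and 1.11 against CLP values of -1.68 and -3.48. Adgrl4, an endothelial adhesion receptor, stood at -1.76, -0.40 and -0.93 in wild-type sham against CLP values up to 1.53 with a median of 0.30, and at 0.58, 1.88 and -0.14 in knockout sham against -0.57 and -2.55. Both lay apart in each table by the gene's mean, at percentiles 96.33 and 0.94 for Kdr and 96.14 and 2.85 for Adgrl4, but for Adgrl4 one probe set was apart in wild type and the other in knockout, and neither in both. Ushbp1, a binding partner of the Usher protein harmonin, was the foremost of this kind, at percentiles 99.49 and 0.8, with knockout CLP values of -2.31 and -4.02 against 1.00, 0.33 and 0.00 in sham. Ccnl2, a cyclin of the splicing machinery, was at 99.44 and 1.82, and Dgkz, a kinase that removes diacylglycerol, at 99.79 and 3.16. Adamts7, a matrix protease, was at 97.91 and 1.48, Myh14, a non-muscle myosin, at 96.88 and 2.56, and Nrtn, a neurotrophic factor, at 96.94 and 3.45. Nrtn's wild-type arrays overlapped once the array standardisation was undone. Nosip, a protein that binds endothelial nitric oxide synthase, was at percentiles 96.49 and 7.59, and in knockout its 2 probe sets differed in sign. None of these genes passed the wild-type test.

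The endothelial list as a whole was low in knockout. Of its 22 members, 12 were lower and 1 higher in knockout and 4 lower and 2 higher in wild type, with median percentiles of 3.05 and 43.7. The list's mean was -0.07 and -1.70 in knockout CLP arrays against 1.42, 1.25 and 0.02 in sham, and from -0.28 to 0.31 in wild-type CLP arrays against -0.31, 0.29 and 0.24 in sham. The median over all genes is 50 by construction. Robo4, an endothelial guidance receptor, was the 1 member lower in both, at 1.9 and 2.15. Epas1, the hypoxia-inducible factor HIF-2 alpha, fell in wild type by 2.14 (SE 0.25, adjusted p = 0.03573) and overlapped in knockout at percentile 48.26.

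**Figure D5:**
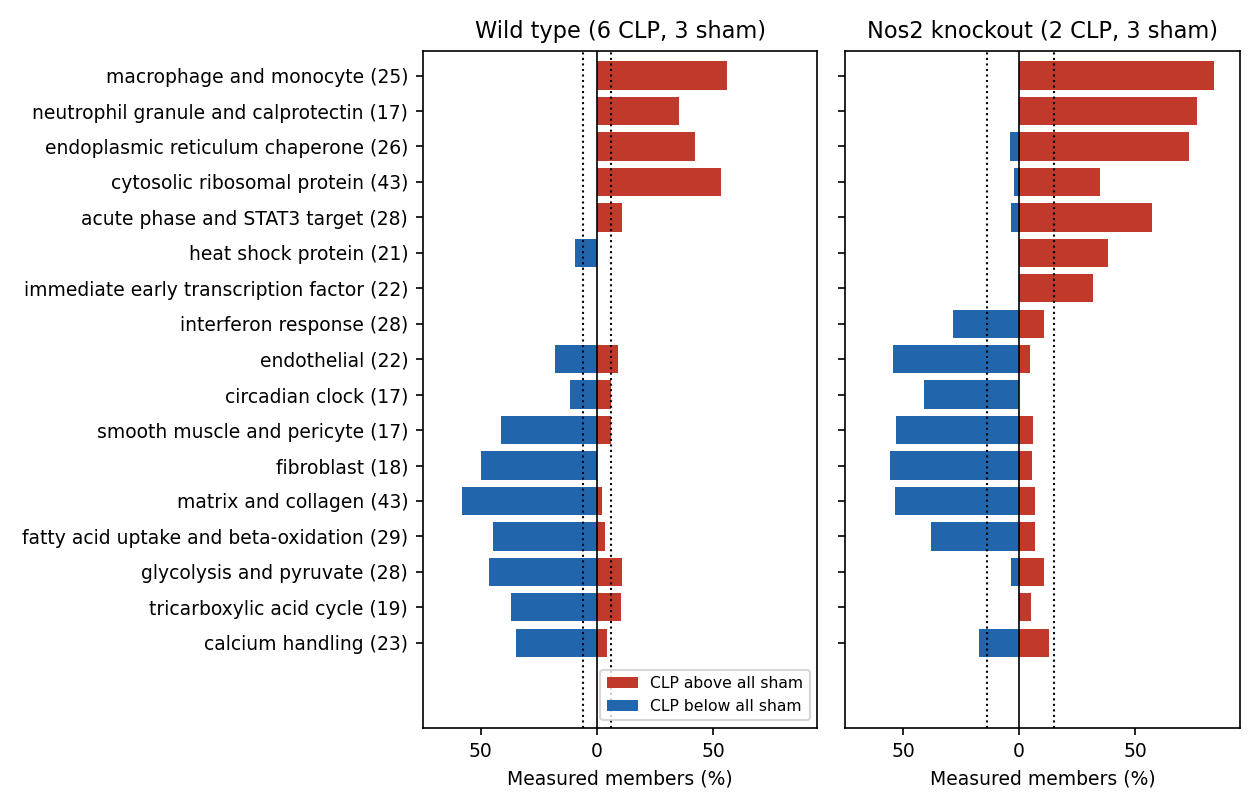
Share of each list's measured members (number in brackets) whose CLP arrays all lay above sham (red, to the right) or all below sham (blue, to the left), in wild type and knockout (horizontal axes, %). Dotted lines mark the share over all genes (5.89% and 6.11% in wild type, 15% and 14% in knockout); 14 and 21 of 25 macrophage genes lay above sham, and 25 and 23 of 43 matrix genes below.

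Several lists had counts in their leading direction above the background in knockout, and fewer members apart in wild type. Over all genes 15% were higher and 14% lower in knockout, and 5.89% and 6.11% in wild type. Not every wild-type count was near these shares. The difference between the genotypes was not tested. Of 28 acute phase and STAT3 target genes, which cytokines of the interleukin-6 family induce, 16 were higher and 1 lower in knockout, against 3 and 0 in wild type. Saa3, an acute phase apolipoprotein, and Serpina3n, a protease inhibitor, were higher in both, at 96.85 and 99.93 and at 97.17 and 99.75. Cfb, complement factor B, was the other one, at 98.61 and 69.27. With Max Dep arrays alone 9 members were higher in both. Fewer arrays make separation easier, and over all 12393 genes 541 were then higher in both, against 270 with all CLP arrays. Socs3, the feedback inhibitor of STAT3, stood at 4.01 and 1.60 in knockout CLP against -0.43, 0.55 and -0.76 in sham. In wild type its lowest CLP array and highest sham array met at -0.15. Without wild-type sham replicate 2 or Min Dep replicate 2 it was apart there, but leaving out an array can only remove overlap. Cebpd, an acute phase transcription factor, was at 92.7 in knockout and 55.92 in wild type.

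Immediate early transcription factors, which many stimuli induce first, and heat shock chaperones were counted likewise. Of 22 immediate early genes, 7 were higher in knockout and none was apart in wild type. Of 21 heat shock genes, 8 were higher in knockout, and 2 were lower and none higher in wild type. Of 28 interferon response genes, 8 were lower and 3 higher in knockout and none was apart in wild type. Iron and metallothionein genes counted 9 higher and 1 lower of 17 in knockout and 2 and 2 in wild type; Mt2, a zinc-binding metallothionein, was at percentiles 98.92 and 93.34 in knockout and wild type and Fth1, the ferritin heavy chain, was higher in both. Ppara, the fatty acid receptor that drives oxidation genes, was the highest percentile of the knockout table, at 2.90 and 6.08 in CLP against 0.02, -3.08 and 0.69 in sham, while in wild type its CLP values ran from -2.05 to 2.05 around sham values of 0.30, 0.41 and 0.37. Per1, a clock repressor, was at percentile 0.99 in knockout and 46.91 in wild type.

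Other lists had counts of lower genes above the background in wild type (6.11%) and at or below it in knockout (14%), apart from calcium handling with 4 of 23, again with no test of the difference. Of 19 tricarboxylic acid cycle genes, 7 were lower and 2 higher in wild type and 0 and 1 in knockout. Of 28 glycolysis and pyruvate genes, 13 were lower and 3 higher in wild type and 1 and 3 in knockout, with Pdk4 the shared one. Of 71 respiratory chain subunits, 13 were lower and 4 higher in wild type and 3 and 5 in knockout. Of 23 calcium handling genes, 8 were lower and 1 higher in wild type and 4 and 3 in knockout, and Casq2, the calcium store of the sarcoplasmic reticulum, was lower in both. Ryr2, the calcium release channel, stood at 1.37, 0.98 and 1.02 in wild-type sham against -1.66 to 0.30 in CLP (adjusted p = 0.07058), and overlapped in knockout at percentile 86.41. Of its 2 probe sets, the one that was lower without overlap in wild type was higher without overlap in knockout. The other overlapped in both. Opa1, which fuses the inner mitochondrial membrane, fell in wild type by 2.14 (SE 0.19, adjusted p = 0.0276), from 1.13, 1.75 and 1.34 to a range of -1.0 to -0.50, and overlapped in knockout, where CLP values were -0.70 and 0.82 against -1.05, 0.72 and 0.09 and its 2 probe sets differed in sign. The tricarboxylic acid list's mean in knockout followed no group, at -0.88 and 0.69 in CLP against -1.41, 0.30 and 0.83 in sham.

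How far the gene mean hides disagreement between probe sets was counted. Of the 99 genes higher in both that have several probe sets, all probe sets agreed in sign in both tables in 80, and of the 89 lower in both in 75. Of opposite genes with several, 22 of 25 higher in wild type and 28 of 38 lower in wild type agreed throughout. Without the arrays that stood apart by sex-linked genes, wild-type sham replicate 1 and knockout sham replicate 2, an alternative chosen after seeing the data, 419 genes were higher and 336 lower in both and 184 and 182 were opposite, against 21.9% of all genes higher and 21.2% lower in knockout; of the wild-type rises 37% were then higher in knockout and 16.3% lower, and of the wild-type falls 27.1% were lower and 14.7% higher.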

How the data were processed

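Total RNA of whole hearts was hybridised to short oligonucleotide arrays. The deposited values are 2 tables of 22690 probe sets, made by the authors with software that no source used here names. In the deposited wild-type table the values are a score standardised per probe set and again per array (mean 0, SD 1), as tested on the table. In the deposited knockout table they are a score that behaves as a centred log difference, from -7.784 to 8.178, with 54.18% of probe sets holding an array at exactly 0 and sham replicate 1 shifted by 0.01808. No signals over background were used, so dim probe sets could not be filtered.

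Control probe sets (64) were left out. Platform annotation gave 20380 probe sets 1 gene, 691 several and 1555 none; only the first were used, averaged per gene into 12393 genes. Linear models (limma 3.58.1, R 4.3.3) compared CLP with sham on 9 wild-type arrays (Min Dep and Max Dep weighing equally, unmoderated statistics on 6 residual degrees of freedom, since the values are standardised) and, with eBayes, on 5 knockout arrays. P-values were adjusted by Benjamini-Hochberg over all genes, threshold 0.05. They measure only the spread between these arrays, whose number limits the precision. Simulated data of the same form were used to test the scripts. Alternatives changed the summary per gene, the arrays, the moderation, the standardisation and the list length.

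Genes were named by a rule: among genes apart in both tables, the 12 higher in both, 12 lower in both and 8 of each opposite kind with the highest lower percentile of the 2 tables, up to 4 per gene list, and a set of heart, immune and metabolic genes. Further names, such as the other members of the chaperone and fatty acid lists higher or lower in both and genes holding the promoter element, were given after their values were seen. The members and lists were chosen with earlier results of these data known.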

Additional observations from a re-analysis of the deposited data

Results flagged for a closer look

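Timp1, a protease inhibitor, had 1 wild-type CLP array far from the other 5: Max Dep replicate 1 at 2.98, with a gap to its neighbour of 0.903 of the range. Chance marks about 1 such group in 20.

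The 16 foremost opposite genes are given with the lower of their 2 percentiles, each counted from the side of its change; the difference between genotypes was not tested. Higher in wild type and lower in knockout were Ushbp1 (99.2), Ccnl2 (98.18), Adamts7 (97.91), Myh14 (96.88), Dgkz (96.84), Nrtn (96.55), Kdr (96.33) and Adgrl4 (96.14). Lower in wild type and higher in knockout were Ccnd1 (98.83), Ppp1r3c (98.63), Lgals1 (98.16), Dnajb4 (96.96), Dnttip2 (95.78), Clic4 (94.7), Hikeshi (94.51) and Asns (94.03).

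The knockout CLP array that was left out lay above all sham arrays in 267 of the 270 genes higher in both tables (98.9%), against 23.7% of all genes, and below them in 166 of the 172 lower in both (96.5%), against 18.8%. It lay between the other CLP arrays in 75.1% of genes, and the highest correlation between knockout arrays was 0.691 with it and 0.21 without it. It was not counted as an independent repeat of them, and whether it is one was not tested.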

How the results depend on the processing

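Leaving out an array can only add genes without overlap, so those counts move by construction: over single arrays left out, 1640 to 2373 genes were apart in wild type and 4980 to 6881 in knockout, 288 to 368 were higher and 183 to 322 lower in both, and 78 to 144 and 59 to 204 were opposite (higher, then lower, in wild type). Leaving out single arrays also gave 0 to 186 wild-type genes past the threshold and 0 knockout genes, Spearman correlations of 0.1068 to 0.2014, 53.08% to 56.5% of genes with the same sign, and 86 to 112 and 52 to 79 shared among the 500 most raised and lowered; of the wild-type genes past the threshold, 50% to 100% of rises were higher and 51.06% to 100% of falls lower in knockout. The 50% came without Max Dep replicate 2, where 4 genes passed; 100% of falls were lower also with the 5' minus 3' difference as covariate, where 1 gene passed.

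Wild-type genes past the threshold numbered 0 with eBayes, 7 with Max Dep and 1 with Min Dep arrays only, 179 with the array standardisation undone, 513 as probe sets, and 0 with arrays of like sex-linked values only, an alternative chosen after seeing the data. Knockout genes past it numbered 295 with CLP replicate 1 and 732 without the 25% of genes of largest residual spread in knockout. That spread is also the yardstick of the same test, so the 732 cannot be read as genes that passed it. The causes were not tested. Genes apart in wild type numbered 2373 with like sex-linked values, 2887 as probe sets, and 3277 and 2895 with Max Dep and Min Dep arrays only; in knockout 5689 probe sets were apart. Higher in both were 419 with like sex-linked values, 412 as probe sets and 541 with Max Dep arrays only. Lower in both were 336, 307 and 310 in that order, and 289 with Min Dep arrays only. Higher in wild type and lower in knockout were 184, 137, 185 and 168 in that order, and the reverse 182, 146, 115 and 158. These settings change how easily genes come apart. Of wild-type rises, 37%, 32.5%, 31.7% and 27.2% were higher and 16.3%, 10.8%, 10.8% and 12.4% lower in knockout. Of falls, 27.1%, 18.9%, 19.8% and 18.8% were lower and 14.7%, 9.01%, 7.33% and 10.3% higher. Over all genes 21.9%, 14.5%, 15% and 15% were higher in knockout, and 21.2%, 13.4%, 14% and 14% lower. The main shares were 37% and 10.3% of rises, and 22.7% and 7.13% of falls. Lists of 250 genes shared 50 most raised and 24 most lowered, and lists of 1000 shared 253 and 171; 37 most lowered were shared as probe sets. With Min Dep arrays only, 66 most raised were shared and the correlation was 0.1089.

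No paired analysis was possible because the arrays carry codes and no replicate numbers shared between groups. Arrays give no counts, and without signals over background the lowest measurable level is unknown.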
